A study of Mus musculus with 32 samples.

Results

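RNA sequencing libraries of BV-2 cells exposed to lipopolysaccharide (LPS) were compared between a miR-146a-5p mimic and a scramble negative control. BV-2 is a mouse line derived from microglia, the macrophages that reside in the brain. The sample labels name its cell type as glioblastoma and its genotype as WT. They also carry an animal age that differs between groups of this cell line and was not used. LPS is a bacterial cell wall component that microglia sense through Toll-like receptor 4, and a mimic is a short double-stranded RNA that loads the mature microRNA into the silencing machinery. The comparison used the 8 of 32 libraries that carry both LPS and either of these transfections, 4 labelled LPS_miR-146a and 4 labelled LPS_scramble, and all genes were tested. Every cell received LPS at 10 ng/ml for 24 h, so the scramble libraries were LPS-treated and transfected as well. The labels place the LPS treatment before the transfection, whereas the study describes the transfection first. The other groups used here for side by side values were LPS_miR-7a, LPS_miR-29a, VEH_miR-146a and VEH_scramble, 4 libraries each, where VEH is vehicle in place of LPS. All groups come from this same line, which is grown alone and contains no neurons, astrocytes or other host cells.

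MicroRNAs silence messenger RNAs by base pairing of their seed with sites that lie mostly in 3' untranslated regions (3' UTRs), which lowers the level or the translation of the message. In macrophages and microglia miR-146a is induced by LPS through NF-kappa-B, and its best known targets are the adaptors Irak1 and Traf6, which carry the signal from Toll-like and interleukin-1 receptors to NF-kappa-B. It is therefore known as a brake on its own inducing pathway, and in several cell types it has also been tied to cell division. The mature sequence and the matches to it in the 3' UTRs of the genes on which the results turn are printed here, because they define what the mimic can pair with.

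mmu-miR-146a-5p: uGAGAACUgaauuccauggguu

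The capitals mark the seed, bases 2 to 8 of this RefSeq sequence, which is encoded by Mir146 at chr11:43374435-43374456 on the minus strand of GRCm38.p6. A full match in a 3' UTR reads AGTTCTCA and is called an 8mer. The 7mer-m8 match reads AGTTCTC without the last A, and the 7mer-A1 match reads GTTCTCA without the first A. In the following stretches of transcript sequence the capitals mark such matches.

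Irak1 site 1: gactcagaggtcaaAGTTCTCAtgcttg
Irak1 site 2: ttctcatgcttggaAGTTCTCAtagtgt
Irak2 site 1: cccccaaacctcttAGTTCTCcacaacg
Irak2 site 2: ccggtgtctccgcaAGTTCTCAagttca
Traf6 site 1: ccgctctggtgttgAGTTCTCAtttagt
Traf6 site 2: ccctggaaggcttaAGTTCTCAagtact
Traf6 site 3: gtactttggagtctAGTTCTCAgggagc
Traf6 site 4: gactttgctactgcAGTTCTCAaacatg
Notch1 site 1: caagaaaataaactAGTTCTCAgagcct
Rbl1 site 1: gtattcagtattgtAGTTCTCAaaataa
Mxd4 site 2: caggctagcaagcaAGTTCTCAggcctc

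The 2 Irak1 8mers lie at chrX:74015393-74015400 and chrX:74015377-74015384 on the minus strand of a 3' UTR of 1526 bases, and a 7mer-A1 match follows further on. Irak2 carries a 7mer-m8 match at chr6:113694133-113694140, an 8mer at chr6:113694266-113694273 and a 7mer-A1 match further on, all on the plus strand. Traf6 holds 4 8mers in its long 3' UTR of 4170 bases, the first at chr2:101697959-101697966 and the last at chr2:101701359-101701366 on the plus strand. The Notch1 8mer lies at chr2:26459263-26459270, the Rbl1 8mer at chr2:157146872-157146879 and the Mxd4 8mer at chr5:34174083-34174090, all on the minus strand. Of these genes Irak1, Irak2, Traf6 and Notch1 were lower in every miR-146a library than in its same-numbered scramble library, as was Rbl1, whereas Mxd4 was higher.

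Library totals in counts, after restoration of lost decimal marks, were 2.705, 13.51, 13.48 and 20.52 M for scramble replicates 1 to 4 and 9.527, 8.42, 9.813 and 3.656 M for miR-146a replicates 1 to 4. The precision of low genes was therefore poorest in scramble replicate 1 and miR-146a replicate 4. Same-numbered libraries deviated from their group means together, with correlations over genes of 0.242, 0.482, 0.375 and 0.115. One differently numbered pair, miR-146a replicate 3 with scramble replicate 4, had 0.21, above the 0.115 of the replicates numbered 4, and all other such pairs had 0.0303 or less. Deviations from a group mean cancel within the group, so positive values for same-numbered pairs tend to lower those of other pairs. Each comparison is given without and with the replicate number as a block. All 9 microglia and macrophage markers were expressed, with summed levels of 2819 to 3716 CPM (counts relative to the library total) under scramble and 3174 to 3998 CPM under miR-146a. Of the homeostatic microglia markers Sall1 and Cx3cr1 averaged 0.1 and 0.6 CPM. Markers of astrocytes, neurons, glioma and neural progenitors and fibroblasts stayed at or below 3.79 CPM in sum and those of the oligodendrocyte lineage at or below 7.81 CPM, so the glioblastoma label was not borne out by these markers. Small structural RNA held 4.17% ± 1.26 of counts under scramble and 3.89% ± 1.33 under miR-146a (SD, n = 4), and mitochondrially encoded genes held 2.31% ± 0.475 and 2.43% ± 0.884. Neither share differed beyond its spread (two-sided exact permutation p = 0.714 and 0.886, without the replicate numbers). The mimic itself was not measured, since the libraries do not capture a mature microRNA, and the Mir146 locus had 2 counts over all 8 libraries.

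The miR-146a mimic lowered genes of DNA replication, chromatin assembly and cell division in LPS-treated BV-2 cells and raised a smaller set that holds tissue macrophage genes. Of 12575 genes tested, 307 (2.44%) passed an adjusted p of 0.05 and a log2 fold change of at least 0.3 in size by limma-voom without the block, 103 higher (0.819%) and 204 lower (1.62%). With the replicate block 1785 genes (14.2%) were called, 812 higher (6.46%) and 973 lower (7.74%), and these included all 307. After an additional correction for base composition and length of transcripts, the blocked calls split into 625 higher and 657 lower. The median log2 fold change over all genes tested was -0.01. All 4 miR-146a libraries lay above all 4 scramble libraries for 670 genes (5.33%) and below them for 713 (5.67%). The number of calls without the block depended on single libraries and fell to 32 without scramble replicate 4, the deepest library, and to 38 without miR-146a replicate 3. It was 83 without miR-146a replicate 1, and 153, 187 and 155 without scramble replicates 1, 2 and 3. With the block it was 1164, 562 and 799 without scramble replicates 1, 2 and 3, and 1128, 544 and 821 without the same-numbered miR-146a libraries. With the block, leaving out a library also leaves its same-numbered partner without information on the mimic. The blocked fits without either library of a pair are therefore nearly the same fit, and counts of such fits below hold each pair more than once.

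To determine how the canonical targets responded, Irak1, Irak2 and Traf6 were examined first. Irak1, the kinase that docks on the receptor complex, stood at 117, 109, 103 and 95.4 CPM in scramble replicates 1 to 4 and at 81.3, 92.3, 82.4 and 81.3 CPM in the miR-146a replicates. All miR-146a libraries lay below all scramble libraries, by a small margin for scramble replicate 4. Irak1 had a log2 fold change of -0.32 (SE 0.11), which was not called without the block (adjusted p = 0.153), and of -0.33 with the block, which was called (adjusted p = 0.0236). This blocked call was lost in 6 of the 8 fits that left out a library. Irak2, the related kinase that sustains late Toll-like receptor signalling, had 111, 125, 115 and 123 CPM under scramble and 72.1, 84.2, 90.5 and 85.9 CPM under miR-146a. The groups did not overlap, and Irak2 was called with a log2 fold change of -0.53, an SE of 0.11 and an adjusted p of 0.0327. Its exons, like those of Notch1, overlap a gene on the opposite strand. The strand setting of the counting is not given, so whether reads of the partner were counted is not known. It remained called in 1 of 8 fits without a library when no block was used and in 8 of 8 with the block. Traf6, the ubiquitin ligase that acts downstream of both kinases, had 89.6, 137, 74.1 and 122 CPM under scramble and 63, 93.5, 58.9 and 95.8 CPM under miR-146a. Its groups overlapped because replicates 2 and 4 were high in both, yet each miR-146a library was below its same-numbered scramble library. It had a log2 fold change of -0.49 (SE 0.22, adjusted p = 0.278) without the block and of -0.44 with it (adjusted p = 0.00673), and this blocked call was lost when replicate 2 of either group was left out.

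**Figure D1:**
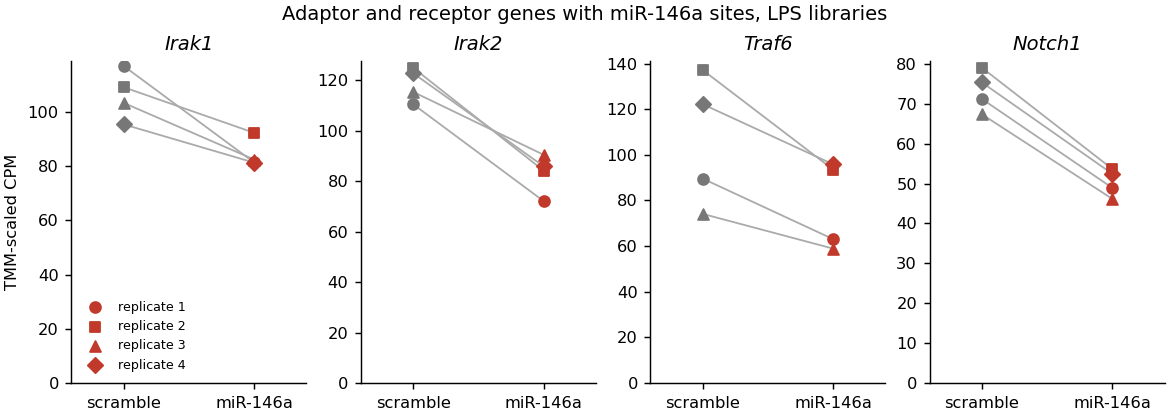
Expression of Irak1, Irak2, Traf6 and Notch1 in the LPS libraries, in CPM scaled by the trimmed mean of M values (TMM), with scramble in grey, miR-146a in red, a symbol for each replicate number and lines joining same-numbered libraries. All lines run downwards, and for Traf6 the replicate numbers differ more than the mimics do.

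Notch1, a receptor that is reported as a miR-146a target and directs cell fate, fell from 71.2, 79.1, 67.4 and 75.4 CPM to 48.9, 53.6, 46.1 and 52.4 CPM. The values were tight within each group and did not overlap. Notch1 was called with a log2 fold change of -0.56, an SE of 0.11 and an adjusted p of 0.0278. In the list of 15 reported miR-146a targets 13 were tested, of which 2 (Notch1 and Irak2) fell and 0 rose, where 1.62% of all genes fell, and the list median was 0.04. With the block 5 were called lower (7.74% of all genes) and 1 higher, Irak1 and Traf6 being among the lower. Without the block 2 were lower without miR-146a replicate 4, 1 without scramble replicate 3 or miR-146a replicate 2 and 0 without any other library. With it 2 were lower without replicate 2 of either group and 4 or 5 without any other library. Notch1 itself was called in 3 of 8 fits without a library when no block was used and in 8 of 8 with it. Other reported targets had values near 0, such as the NF-kappa-B subunit Relb at a log2 fold change of 0.07 (adjusted p = 0.87), the signal transducer Smad4 at 0.09 (adjusted p = 0.875) and Numb, an inhibitor of Notch signalling, at 0.15 (adjusted p = 0.647).

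Beyond these kinases and Traf6, few genes of the pathway from TLR4 and the interleukin-1 receptor to NF-kappa-B were called. Irak2 was the only called gene of 38 tested without the block, where 1.62% of all genes were lower, and the list median was -0.08. With the block 3 were called lower (Irak1, Irak2 and Traf6) and 1 higher (Ticam1, the adaptor of the interferon branch), where 7.74% of all genes were lower and 6.46% higher, so the list held calls at about the rate of all genes or below it. The single unblocked call held without miR-146a replicate 4 and was lost without any other library, and the blocked count of lower genes was 1 without replicate 2 of either group, 2 without replicate 1 or 3 and 5 without replicate 4. The receptor Tlr4 itself had a log2 fold change of 0.30 (adjusted p = 0.237), the adaptor Myd88 one of -0.22 (adjusted p = 0.517), the inhibitor Nfkbia one of -0.16 (adjusted p = 0.753) and the subunit Nfkb1 one of -0.23 (adjusted p = 0.418). These members were picked after their values were seen.

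To ask whether seed sites marked the genes that fell, the 10727 tested genes with an annotated 3' UTR were sorted by the sites in their longest annotated 3' UTR. Genes with any site had a median log2 fold change of 0.02 against -0.01 for the 8510 without one, and the 484 genes with an 8mer had -0.01. The medians varied more with 3' UTR length, since genes in the short tertile of 3' UTR length and without a site had a median of -0.10 and those in the long tertile one of 0.08. Within tertiles of length, the median of genes with any site was lower than that of genes without, with differences of -0.0183, -0.0371 and -0.0308 in the short, middle and long tertile. In the middle tertile (698 to 1841 bases) the 118 genes with an 8mer had a median of -0.08 against 0.01 for 2991 genes without a site, and 20.3% against 7.36% were called lower with the block. This difference of medians was -0.07, -0.13, -0.09 and -0.18 in the pairs of replicates 1 to 4. The middle tertile was singled out after its values were seen and the pairs are the libraries that gave its median, so their common sign is no separate support. In the long tertile 8mer minus no site was -0.073, -0.046, -0.066 and -0.10 in the 4 pairs, and in the short tertile it was -0.13, 0.088, 0.019 and -0.079. Over all lengths, in contrast, any site minus no site gave 0.0019, 0.04, 0.053 and 0.025, above 0 in 4 of 4 pairs, and 8mer minus no site gave -0.044, 0.020, 0.021 and -0.017, with no common sign. In the long tertile the medians were 0.02 with an 8mer and 0.08 without a site, with 6.71% and 4.74% called lower, and in the short tertile, which held 23 genes with an 8mer, they were -0.10 and -0.10. No test was made of these medians, since genes are not replicates.

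**Figure D2:**
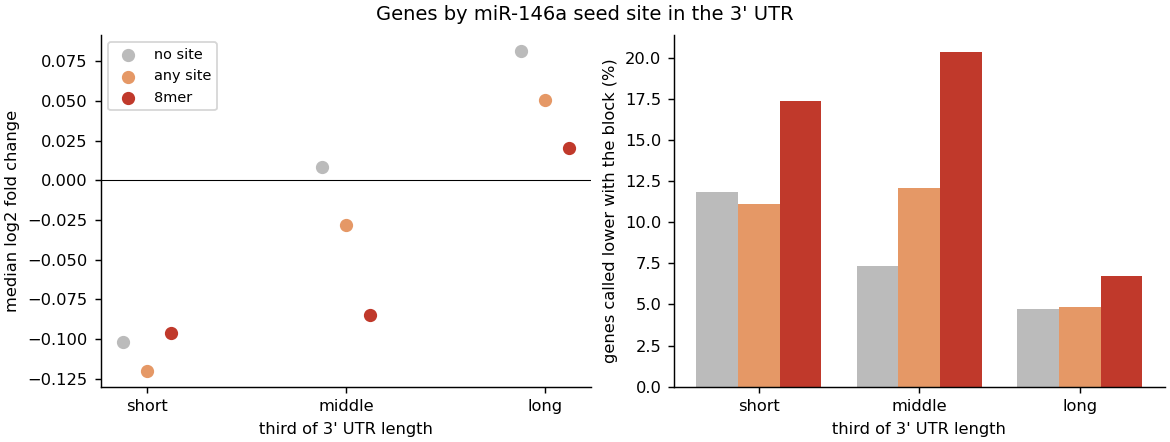
Left, median log2 fold change of tested genes without a miR-146a site, with any site and with an 8mer, by tertile of 3' UTR length. Right, percentage of the same genes called lower with the replicate block. In the middle tertile 20.3% of 8mer genes were called lower against 7.36% of genes without a site.

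Among all called genes with an 8mer, the 6 with the smallest p were Notch1, Rbl1, Mxd4, Fanca, Rpa1 and Slc26a2. Rbl1 encodes p107, a pocket protein that restrains E2F factors. It had 41.6, 57.5, 46.5 and 59.7 CPM under scramble and 23.3, 31.6, 23.7 and 32.9 CPM under miR-146a, with a log2 fold change of -0.97 (SE 0.17, adjusted p = 0.0158). Fanca, a core subunit of the Fanconi anaemia complex, fell by 1.02 on the log2 scale (adjusted p = 0.0143). Rpa1, the large subunit of the single-strand DNA binding protein RPA, fell by 0.77 (adjusted p = 0.0143). All of these also belong to the cell cycle and DNA repair groups described next. Mxd4, an antagonist of Myc, rose from 64.5, 54.6, 53.8 and 42.5 CPM to 78.8, 85.8, 95.8 and 76 CPM (log2 fold change 0.71, adjusted p = 0.0257) despite its 8mer. Slc26a2, a sulphate transporter, rose as well, by a log2 fold change of 0.65 (adjusted p = 0.0222).

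The genes that encode replication-dependent histones fell as a group. These are the intronless, clustered genes that cells transcribe during S phase to package new DNA. Of 57 tested, 38 were called lower and 0 higher without the block, against 1.62% of all genes called lower, and with the block 52 were lower, against 7.74%. All 57 had a log2 fold change below 0, with a median of -1.10. Their summed level was 7168, 7727, 9059 and 8185 CPM in scramble replicates 1 to 4 and 4276, 3697, 3399 and 5085 CPM in the miR-146a replicates, a decrease of 48.8% in the mean. As a share of all counts they held 0.836% ± 0.0856 under scramble and 0.417% ± 0.0605 under miR-146a (SD, n = 4). The groups did not overlap (two-sided exact permutation p = 0.0286, the smallest that 4 against 4 libraries can give). This permutation exchanged all libraries freely and did not use the replicate numbers, and the list was chosen with earlier results of these data known.

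The histone gene with the largest decrease among those called was Hist1h2bp, an H2B gene, at 91.3, 64.4, 103 and 77.4 CPM under scramble and 20.6, 24.8, 22.8 and 30.4 CPM under miR-146a. Its log2 fold change was -1.79 (SE 0.18, adjusted p = 0.00207). Hist1h4a, an H4 gene, dropped from 252, 212, 302 and 295 CPM to 99.1, 110, 99.9 and 111 CPM (log2 fold change -1.34, SE 0.13, adjusted p = 0.00207). Decreases of similar size were seen for Hist1h2af (-1.63), Hist1h2ap (-1.56), Hist1h2br (-1.48), Hist1h3b (-1.47) and Hist2h3c2 (-1.40). Replication-dependent histone genes are near-identical copies, so the split of reads between them is uncertain, while the sum over the list is less exposed to it. The number called without the block was 14 without scramble replicate 4 or miR-146a replicate 3, 19 without miR-146a replicate 1, 24 without scramble replicate 3 and 27 to 40 without any other library.

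Variant histone genes, which are expressed outside S phase, had 1 of 9 called lower (1.62% of all genes), 0 higher and a median of -0.04, and with the block 1 was lower and 2 were higher (6.46% of all genes). The member called was H2afx, whose product H2A.X marks DNA breaks and whose gene yields both a replication-dependent and a polyadenylated message. It fell from 122, 165, 159 and 159 CPM to 76.2, 73.4, 70.7 and 87.7 CPM (log2 fold change -1.01, SE 0.12, adjusted p = 0.00427). Of 11 genes that process histone messages 0 were called without the block and 6 were called lower with it, where 7.74% of all genes were, at a list median of -0.40. These 6 became 0 without replicate 2 or 3 of either group and 1 without replicate 1. Zfp473, a zinc finger protein that binds the U7 particle, had the smallest p (log2 fold change -0.82, adjusted p = 0.124, with the block 0.0309).

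Genes of DNA replication were also lower with the mimic. Of 56 tested, 30 fell and 0 rose without the block, where 1.62% of all genes fell, and 46 fell with it, where 7.74% did. All 56 had a log2 fold change below 0, with a median of -0.89. Their summed level was 2881, 3772, 3031 and 3739 CPM under scramble and 1774, 2201, 1697 and 1944 CPM under miR-146a, so the groups did not overlap. Mcm6, a subunit of the replicative helicase, had 163, 223, 203 and 254 CPM under scramble and 78.1, 88.6, 92.4 and 91.5 CPM under miR-146a. Even the highest miR-146a library was far below the lowest scramble library, and the log2 fold change was -1.27 (SE 0.14, adjusted p = 0.00314). Its partner Mcm4 fell by 1.00 on the log2 scale (adjusted p = 0.00837). Dut, which removes dUTP from the nucleotide pool, fell by 1.26 (adjusted p = 0.00467), and Prim2, a primase subunit, by 0.90 (adjusted p = 0.00837). Cdc45, which activates the helicase, went from 25.1, 48.5, 32.2 and 38.9 CPM to 15.8, 12.4, 10.4 and 20.4 CPM (log2 fold change -1.47, adjusted p = 0.014). Pole2, a subunit of the leading strand polymerase, had a log2 fold change of -1.38 (adjusted p = 0.0375). The count of 30 fell to 6 without scramble replicate 4, 5 without miR-146a replicate 3 and 11 without miR-146a replicate 1.

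**Figure D3:**
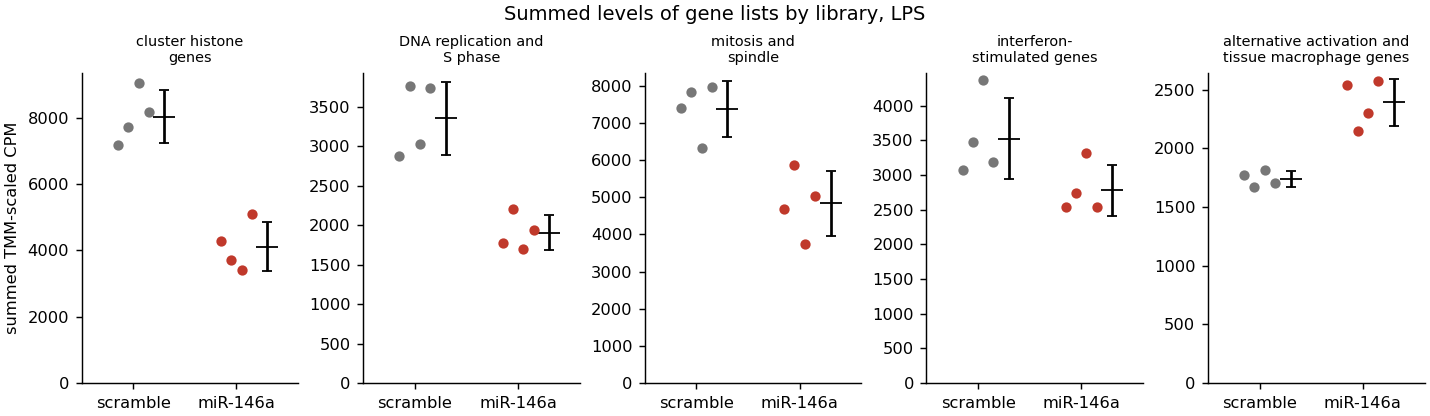
Summed TMM-scaled CPM of the tested members of 5 gene lists in each LPS library (points), with mean and SD (bars, n = 4 per group). The 4 miR-146a libraries lie below all scramble libraries for histone, DNA replication and mitosis genes and above them for alternative activation and tissue macrophage genes, while the groups overlap for interferon-stimulated genes.

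Mitotic genes were lower too, by less. Of 77 genes of mitosis and the spindle 24 fell and 0 rose without the block (1.62% of all genes fell), 69 fell with it (7.74% of all genes), and the median was -0.66. Their summed level was 7395, 7831, 6321 and 7964 CPM under scramble and 4689, 5866, 3744 and 5049 CPM under miR-146a. The scramble replicate with the lowest sum, replicate 3, was paired with the miR-146a replicate with the lowest sum. Dlgap5, a spindle protein, fell from 61.8, 70.6, 55.7 and 73.5 CPM to 32.9, 40.3, 29.2 and 24.5 CPM (log2 fold change -1.04, SE 0.16, adjusted p = 0.0122). Cenpn, of the centromere, had a log2 fold change of -1.10 (adjusted p = 0.0113), Tpx2, an activator of Aurora A, one of -0.81 (adjusted p = 0.0147), and Mybl2, a factor that drives mitotic genes, one of -0.97 (adjusted p = 0.0158). Aunip, an Aurora A interacting protein, was among the largest decreases (log2 fold change -1.73, adjusted p = 0.0158). Common proliferation markers, picked after their values were seen, were also called: Mki67 at -0.71 (adjusted p = 0.0429), Top2a at -0.79 (adjusted p = 0.0429) and Cdk1 at -0.78 (adjusted p = 0.0362). Without the block 0 mitotic genes were called when scramble replicate 4 or miR-146a replicate 3 was left out, 3 without miR-146a replicate 1, and 12 to 14 without scramble replicate 1, 2 or 3, while with the block 42 to 72 were called without any library.

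Genes of homologous recombination and Fanconi repair, which are largely expressed in S and G2 phase, had a median of -0.54, with 12 of 48 called lower (1.62% of all genes), 0 higher and 22 lower with the block (7.74% of all genes). The breast cancer gene partner Bard1 fell from 29.6, 37.6, 24.1 and 33.9 CPM to 11.7, 19.7, 11.4 and 13.7 CPM (log2 fold change -1.19, adjusted p = 0.0207). The helicase Brip1 had a log2 fold change of -1.28 (adjusted p = 0.0261). These calls were lost in part when a library was left out, with 0 of 48 called without scramble replicate 4 or miR-146a replicate 3, 1 without miR-146a replicate 1, 3 without scramble replicate 2 and 7 without scramble replicate 1. With the block the 22 became 12 without replicate 2 of either group.

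Among 30 genes that control entry into S phase, 4 fell and 1 rose, where 1.62% of all genes fell and 0.819% rose. Without scramble replicate 4, miR-146a replicate 1 or miR-146a replicate 3, 0 were called in either direction, and without scramble replicate 3 the 1 higher gene was lost. Ccnd2, a D-type cyclin, fell from 91.1, 92.6, 91.4 and 109 CPM to 40.8, 59.4, 42 and 66.4 CPM (log2 fold change -0.97, SE 0.16, adjusted p = 0.0155), and Ccnd1, the other called cyclin, had a log2 fold change of -0.89 (adjusted p = 0.033). E2f8, a repressor of the E2F family, had a log2 fold change of -1.13 (adjusted p = 0.0293). The remaining called genes were Rbl1, lower, and Mxd4, higher. With the block 9 were lower and 4 higher (7.74% and 6.46% of all genes), and the 9 became 5 without replicate 2 or 3 of either group and 6 without replicate 1. The blocked calls included the inhibitor Cdkn1b, higher at a log2 fold change of 0.50 (adjusted p = 0.00303), and Myc, lower at -0.62 (adjusted p = 0.0431), both picked after their values were seen. Of 19 p53 targets and growth arrest genes 0 were called without the block and the median was 0.14. With the block 5 were called higher (Trp53inp1, Ccng1, Plk2, Btg1 and Pmaip1) and 1 lower, where 6.46% of all genes were higher, and the count of higher genes was 0 or 1 without replicate 1, 2 or 3 of either group and 7 without replicate 4. Trp53inp1, a p53 target, had the smallest p in that list (log2 fold change 1.11, adjusted p = 0.0567, with the block 0.0289), and the inhibitor Cdkn1a, which is held in both lists, had a log2 fold change of -0.42, called lower with the block only (adjusted p = 0.00586). In bulk libraries, fewer cells in S phase or mitosis and less RNA of these genes per cell cannot be told apart.

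Of the called protein-coding genes ranked here, F13a1 and Sepp1 had the largest increases, and both are typical of tissue macrophages. F13a1 (chr13:36867178-37050244, minus strand, protein-coding), the catalytic subunit of coagulation factor XIII and a marker of alternatively activated macrophages, stood at 42.4, 23, 31.3 and 28.3 CPM under scramble and at 155, 112, 173 and 85.9 CPM under miR-146a. Even the lowest miR-146a library, replicate 4, was well above the highest scramble library. The log2 fold change was 2.17 (SE 0.22, adjusted p = 0.00207), and F13a1 was called in all 8 fits that left out a library. Sepp1 (chr15:3268547-3280508, plus strand), which encodes the selenium carrier selenoprotein P, went from 159, 105, 198 and 111 CPM to 488, 276, 555 and 382 CPM (log2 fold change 1.58, SE 0.24, adjusted p = 0.013). Exons of F13a1 and of Sepp1 overlap a gene on the opposite strand (Gm30489 and Ccdc152). Both genes were high in scramble replicates 1 and 3 and in miR-146a replicates 1 and 3, and the blocked adjusted p was 0.000124 for F13a1 and 4.35e-05 for Sepp1.

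The rest of the 12 largest increases spanned several functions. Klf2, a zinc finger factor that restrains inflammatory activation of macrophages, had 18.4, 10.3, 16.7 and 14.2 CPM under scramble and 32.1, 26.7, 44.2 and 40.5 CPM under miR-146a (log2 fold change 1.32, SE 0.21, adjusted p = 0.0143). Slc40a1, the iron exporter ferroportin, had 52.5, 36.6, 47.9 and 32.3 CPM under scramble and 79.3, 64, 99.8 and 96.4 CPM under miR-146a (log2 fold change 1.05, SE 0.19, adjusted p = 0.0175). In both the groups were apart. Rhob, a small GTPase of endosomes, rose by a log2 fold change of 1.14 (adjusted p = 0.00426), and Reps2, an endocytosis protein, by 1.04 (adjusted p = 0.00467). Rnf150, a ubiquitin ligase, and Socs6, a suppressor of cytokine signalling, rose with log2 fold changes of 1.26 and 0.99 (adjusted p = 0.00459 and 0.0035), and Trim63, another ubiquitin ligase, with 1.02 (adjusted p = 0.0232). The membrane proteins Ceacam1 and Cd93 had log2 fold changes of 1.12 and 1.06 (adjusted p = 0.0247 and 0.0278), from low levels. Mgll, which hydrolyses monoacylglycerols, rose from 6, 2.74, 3.63 and 3.15 CPM to 7.81, 10.6, 6.47 and 10.5 CPM (log2 fold change 1.33, adjusted p = 0.0257). The genes called least often when a library was left out were Mgll and Ceacam1 (2 of 8 fits) and Cd93 (3 of 8), whereas Rnf150, Rhob, Reps2 and Socs6 were called in 8 of 8.

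**Figure D4:**
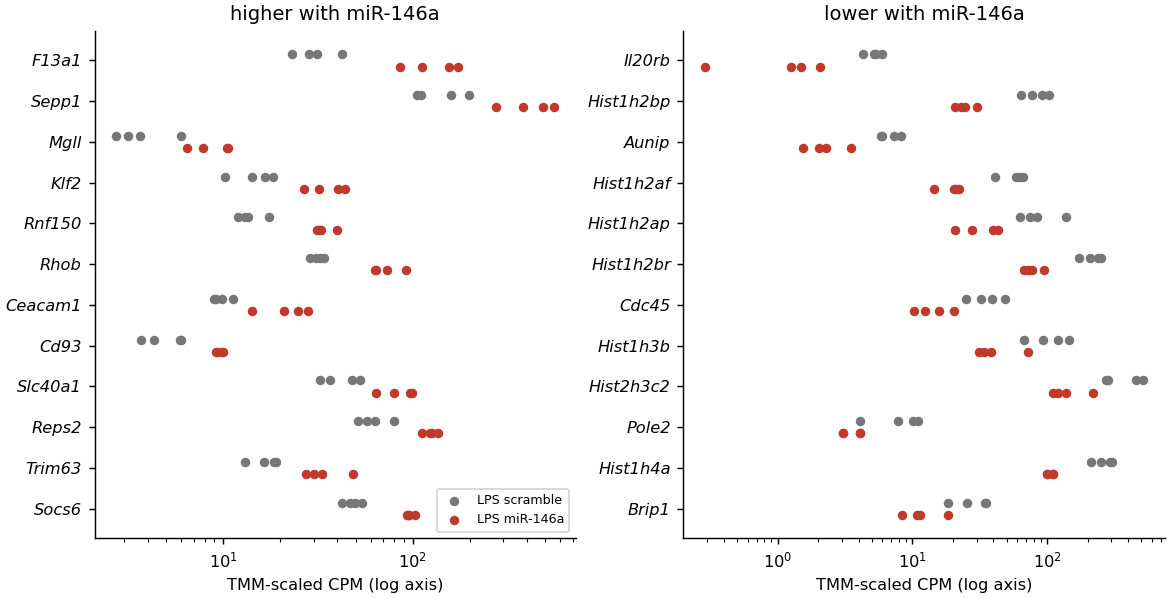
TMM-scaled CPM on a log axis of the 12 protein-coding genes with the largest increase and the 12 with the largest decrease, each point a library of LPS_scramble (grey) or LPS_miR-146a (red). All 12 genes on the left separate without overlap, and Hist1h3b and Brip1 on the right overlap by 1 library.

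Il20rb had the largest decrease of called protein-coding genes with an established symbol and the same sign in 4 of 4 pairs. This receptor subunit for interleukins 19, 20 and 24 stood at 6, 4.28, 5.41 and 5.18 CPM under scramble and 1.5, 1.25, 2.06 and 0.291 CPM under miR-146a. The levels are low, and the log2 fold change of -1.91 (SE 0.39, adjusted p = 0.0319) was called in 2 of 8 fits without a library. Of the other 11 largest decreases, 7 were the histone genes named above and 4 were Aunip, Cdc45, Pole2 and Brip1.

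Genes of alternative activation and tissue macrophages were read as a list that includes F13a1 and Sepp1. Of 15 tested, 4 (F13a1, Sepp1, Mrc1 and Maf) rose and 0 fell without the block, against 0.819% of all genes higher. With the block 9 rose, against 6.46%, and the list median was 0.64. The summed level was 1771, 1667, 1817 and 1707 CPM under scramble and 2543, 2148, 2298 and 2571 CPM under miR-146a, with no overlap and an increase of 37.3% in the mean. The mean of the sum went from 1740 to 2390 CPM. Within it F13a1 rose from 31.2 to 132 CPM and Sepp1 from 143 to 425 CPM, so these genes made up much of the increase. Mrc1, the mannose receptor CD206, had 85.1, 70.3, 70.3 and 64 CPM under scramble and 149, 125, 137 and 116 CPM under miR-146a (log2 fold change 0.90, SE 0.12, adjusted p = 0.00611). Maf, a transcription factor of tissue macrophages, had 202, 133, 187 and 126 CPM under scramble and 358, 288, 310 and 257 CPM under miR-146a (log2 fold change 0.94, SE 0.17, adjusted p = 0.0182). The growth factor Igf1 was called with the block only, at a log2 fold change of 0.46 (adjusted p = 0.00214). The 4 calls without the block became 2 without scramble replicate 4.

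Of 29 receptors of phagocytosis 3 were higher (0.819% of all genes) and 0 lower, at a median of 0.19, and with the block 12 were higher (6.46% of all genes) and 2 lower. Without the block 1 was higher without scramble replicate 3 or 4 or miR-146a replicate 1 or 3, and 2 without scramble replicate 1 or miR-146a replicate 2 or 4. With it 5 were higher without replicate 2 of either group and 9 to 12 without any other library. In addition to Mrc1 the higher genes were Itgax, the integrin CD11c, which rose from 46.9, 76.5, 43.4 and 67.5 CPM to 108, 133, 95.6 and 104 CPM (log2 fold change 0.89, adjusted p = 0.0327, called in 1 of 8 fits without a library), and Cd300a, an inhibitory receptor for phosphatidylserine (log2 fold change 0.64, adjusted p = 0.0257, called in 4 of 8 such fits). The 2 genes lower with the block were Axl, a receptor for apoptotic cells, and the Fc receptor Fcgr1. In the list of disease-associated microglia genes that the study chose, 2 of 38 rose (Itgax and Timp2, an inhibitor of metalloproteases, log2 fold change 0.55, adjusted p = 0.0228) and 1 fell, where 0.819% of all genes rose and 1.62% fell. The lower gene was Cst7, an inhibitor of cathepsins, which went from 46.5, 45, 75.5 and 67.2 CPM to 23.1, 23.3, 35.2 and 40.2 CPM (log2 fold change -1.05, adjusted p = 0.0372). With the block 11 of these genes were higher and 2 lower (6.46% and 7.74% of all genes), and the list median was 0.21. Without the block 0 were called without scramble replicate 1 or 4 or miR-146a replicate 3. In that fit 0 were lower without scramble replicate 3 or miR-146a replicate 1 or 2 as well, so the call of Cst7 was lost there. With the block 6 were higher without replicate 2 of either group. Trem2, the receptor that the later stage of this state depends on, had a log2 fold change of 0.01 (adjusted p = 0.98). The study's list of phagocytic microRNA targets, mostly lysosomal enzymes, had 0 of 28 genes called without the block, 2 higher with it (Man2b1 and Naglu, where 6.46% of all genes were higher), and 26 of 28 above 0 at a median of 0.12. The blocked count was 1 without replicate 1, 2 or 3 of either group and 5 without replicate 4, and the unblocked count was 1 without miR-146a replicate 4. Its smallest p belonged to Man2b1, a lysosomal mannosidase, at a log2 fold change of 0.43 (adjusted p = 0.135, with the block 0.0138).

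Of 25 genes that handle lipids 1 was called, Mgll, which was higher (0.819% of all genes), and the median was 0.25. With the block 9 were higher (6.46% of all genes), among them Apoe, the main lipid carrier of microglia, at a log2 fold change of 0.43 (adjusted p = 0.00673), and lipoprotein lipase Lpl at 0.40 (adjusted p = 0.00608), while 1 was lower. The 9 became 2 without replicate 2 of either group. By contrast 0 of 30 genes of cholesterol and fatty acid synthesis were called without the block, their median was -0.03 and with the block 2 were called lower (7.74% of all genes), a count of 0 without replicate 2 of either group and 1 without any other library, the smallest p belonging to the sterol carrier Stard4 (log2 fold change -0.36, adjusted p = 0.2). Of 15 genes of coagulation and fibrinolysis F13a1 alone was called without the block, and with it Plaur and Thbd were higher as well, in a count that was 1 without replicate 2 or 3 of either group.

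**Figure D5:**
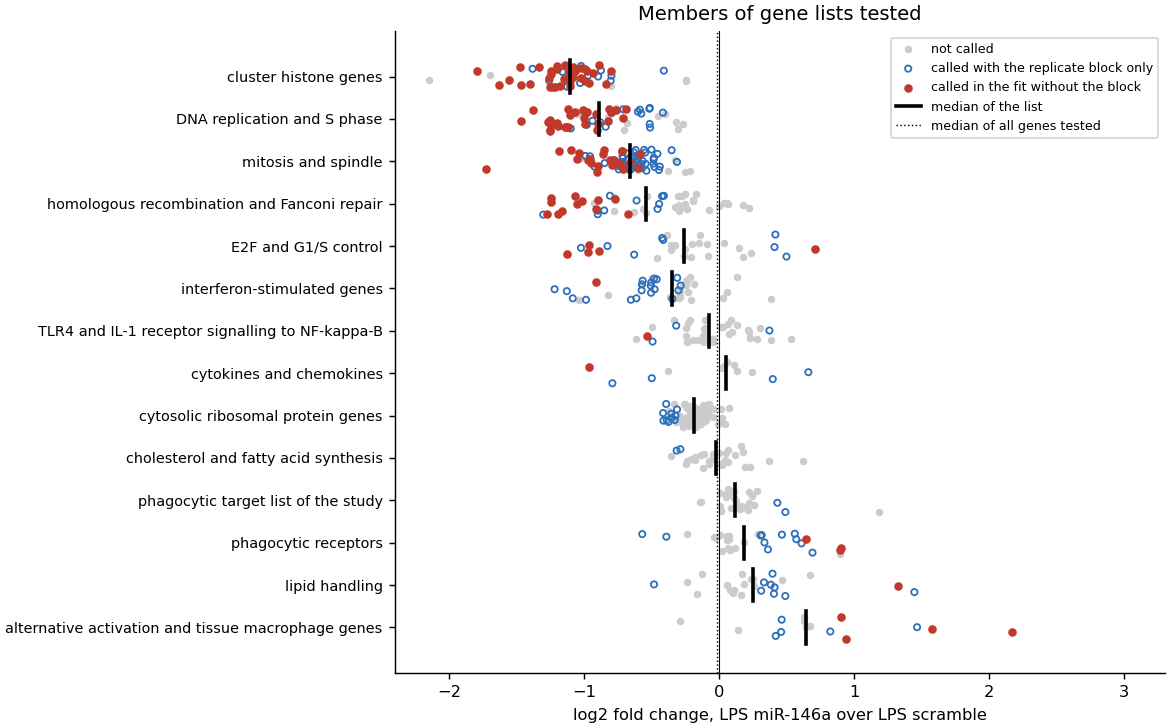
Log2 fold change of every tested member of 14 gene lists, with members called without the block in red, members called with the replicate block only as open blue circles and the rest in grey. Black bars are list medians and the dotted line is the median of all genes tested. Histone, replication and mitosis genes lie left of 0 throughout, and interferon-stimulated genes lean left with a median of -0.35.

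Interferon-stimulated genes, which LPS induces through Ticam1 and type I interferon, leaned lower. Of 43 tested, 39 had a log2 fold change below 0 and the median was -0.35, but 1 gene was called without the block (lower, as were 1.62% of all genes) and 20 were called lower with it, against 7.74% of all genes. The called gene was Xaf1, a proapoptotic interferon target, which fell from 30, 34.1, 43.6 and 35.3 CPM to 17.7, 16, 24.4 and 21 CPM (log2 fold change -0.91, SE 0.17, adjusted p = 0.0236). It was called in 4 of 8 fits without a library when no block was used, and not without scramble replicate 3 or 4 or miR-146a replicate 1 or 2. Over the list 0 to 2 were then called lower. Among genes called with the block only, picked after their values were seen, Ifit3 had 19.3, 18.6, 25.3 and 10.9 CPM under scramble and 7.76, 6.64, 11.5 and 4.08 CPM under miR-146a. Oasl2 had 113, 158, 198 and 127 CPM under scramble and 78.2, 102, 129 and 72 CPM under miR-146a. Replicate 3 was highest in both groups for both genes, so the groups overlapped while every pair was lower with miR-146a. The summed level was 3071, 3472, 4368 and 3181 CPM under scramble and 2535, 2738, 3312 and 2536 CPM under miR-146a. With the block 7 to 25 of the list were called lower when a library was left out, with 7 without replicate 2 of either group and 9 without replicate 3 of either group.

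Few cytokine genes were expressed. Of 12 tested cytokines and chemokines 1 fell and 0 rose, where 1.62% of all genes fell, at a median of 0.05. Ccl9, a chemokine for monocytes, fell from 13.5, 16.3, 17.7 and 17.1 CPM to 10.5, 8.18, 8.22 and 6.41 CPM (log2 fold change -0.96, SE 0.18, adjusted p = 0.0222). With the block 3 were lower and 2 higher (7.74% and 6.46% of all genes), and 0 were lower without replicate 2 or 3 of either group. Ccl9 was called in 4 of 8 fits without a library. Tnf had 21.7, 12.1, 20.8 and 16.2 CPM under scramble and 14.6, 8.98, 16 and 11.4 CPM under miR-146a, was lower in each pair and was not called either way (adjusted p = 0.46, with the block 0.0574). Il1b varied more between replicate numbers than between mimics, with 10.5, 4, 13.3 and 3.87 CPM under scramble and 13.3, 1.93, 12.8 and 1.75 CPM under miR-146a (adjusted p = 0.993). Of 16 enzymes and acute-phase proteins of activated macrophages 0 were called without the block, at a median of -0.08. With the block 3 were lower, among them Irg1, which makes itaconate, at a log2 fold change of -0.55 (adjusted p = 0.00535), and 1 was higher. The 3 became 1 without scramble replicate 2, 0 without miR-146a replicate 2 and 5 without replicate 4 of either group. The nitric oxide synthase Nos2 had 45.4, 61.8, 69.5 and 83.5 CPM under scramble and 32.7, 60.7, 36.2 and 149 CPM under miR-146a, where replicate 4 stood above the rest (adjusted p = 0.631). In the pro-inflammatory list that the study chose, 0 of 23 were called without the block, 1 was higher and 2 were lower with it, and the median was 0.07. With the block 0 were higher and 1 lower without replicate 1 or 3 of either group, 1 higher and 0 lower without replicate 2, and 1 higher and 3 lower without replicate 4. The smallest p was that of Il1rn, the interleukin-1 receptor antagonist (log2 fold change -0.50, adjusted p = 0.109, with the block 0.00845).

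Of 27 cytokine receptors and their feedback inhibitors 1 was higher (0.819% of all genes) and 2 were lower (1.62%), at a median of 0.22. Il13ra1, the interleukin-13 receptor chain, rose from 105, 102, 92.2 and 92.1 CPM to 152, 165, 140 and 112 CPM (log2 fold change 0.55, adjusted p = 0.0455). Socs3, the inhibitor of interleukin-6 type signalling, fell from 63, 82, 67.8 and 59.6 CPM to 39.1, 49.9, 45.9 and 34.4 CPM (log2 fold change -0.68, adjusted p = 0.0406), and Il20rb is given above. Each of Il13ra1 and Socs3 was called in 1 of 8 fits without a library, and 0 of the list were called without scramble replicate 1, 3 or 4 or miR-146a replicate 1 or 3. With the block 8 were higher (6.46% of all genes), including Il4ra and Il10ra, and 2 lower (7.74%), and the count of higher genes was 1 without replicate 2 of either group, 2 without replicate 3 and 4 without scramble replicate 1.

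Metabolic and stress lists contained few calls. Of 25 genes of the Atf4 stress response 1 fell, Mthfd2, a mitochondrial enzyme of folate metabolism (log2 fold change -0.68, adjusted p = 0.0361), the median was -0.35 and 8 were lower with the block, where 1.62% of all genes fell without it and 7.74% with it. The call of Mthfd2 held in 2 of 8 fits without a library. Glycolysis and hypoxia genes had 0 of 27 called without the block, 2 lower with it (0 without replicate 2, 3 or 4 of either group) and a median of -0.05, the smallest p belonging to the enolase Eno1 (log2 fold change -0.32, adjusted p = 0.229, with the block 0.0252). Targets of NRF2, the regulator of antioxidant genes, had 0 of 21 called without the block, 1 higher and 2 lower with it (0 lower without replicate 2 or 3 of either group and 5 without replicate 4) and a median of -0.05, the smallest p being that of the autophagy receptor Sqstm1 (log2 fold change 0.38, adjusted p = 0.17, with the block 0.00758). The 76 cytosolic ribosomal protein genes had a median of -0.18 with 0 called without the block and 10 lower with it (7.74% of all genes), and Rpl3 had the smallest p (log2 fold change -0.32, adjusted p = 0.2). The 10 became 0 without replicate 2 of either group, 2 without replicate 3 and 25 or 26 without replicate 1. Mitochondrially encoded genes had 0 of 11 called without the block, a median of 0.26 and 3 higher with the block (6.46% of all genes), which became 1 without replicate 1 or 2 of either group and 5 without replicate 3, with the smallest p for mt-Nd6 (log2 fold change 0.26, adjusted p = 0.366). Among the cell type markers 0 were called in either fit, and the smallest p in the microglia list belonged to the phosphatase Ptprc (log2 fold change 0.12, adjusted p = 0.607).

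To determine which of these changes were shared with other mimics, the LPS_miR-146a libraries were compared directly with LPS_miR-7a and LPS_miR-29a, so that no scramble library entered. These comparisons share the LPS_miR-146a libraries with the one against scramble. Against miR-7a 818 of 12523 genes (6.53%) differed, 339 higher (2.71%) and 479 lower (3.82%) with miR-146a, and against miR-29a 1532 of 12532 (12.2%) differed, 840 higher (6.7%) and 692 lower (5.52%). With the block these counts were 2619 (20.9%, 9.98% higher and 10.9% lower) and 3408 (27.2%, 14.3% higher and 12.9% lower). DNA replication genes were lower with miR-146a than with miR-7a in 45 of 56 and than with miR-29a in 44 of 56, at medians of -1.08 and -0.93, and with the block in 53 and 50. Histone genes were lower in 32 of 54 and 15 of 56, at medians of -0.86 and -0.60, and with the block in 50 and 36. F13a1 was higher with miR-146a than with miR-7a by a log2 difference of 2.05 (adjusted p = 0.00387) and than with miR-29a by 4.12 (adjusted p = 6.32e-05). Interferon-stimulated genes were lower than with miR-7a in 30 of 42 and than with miR-29a in 33 of 42, at medians of -1.02 and -1.12, and with the block in 37 and 35. The levels of the other mimics bear on these gaps. Scaled over all libraries of the series, the interferon-stimulated genes summed to 2856, 3263, 4093 and 2974 CPM in LPS_scramble and 2341, 2526, 3075 and 2366 CPM in LPS_miR-146a. They summed to 4206, 4409, 6749 and 4273 CPM in LPS_miR-7a and 4392, 4659, 6088 and 4430 CPM in LPS_miR-29a. All libraries of the other mimics thus lay above all scramble libraries, so the gap to them is wider than that between miR-146a and scramble. The replication genes summed to 3140 ± 445 CPM (mean ± SD, n = 4) in LPS_scramble, 1764 ± 204 in LPS_miR-146a, 3724 ± 549 in LPS_miR-7a and 3227 ± 407 in LPS_miR-29a. The histone genes summed to 7517 ± 764, 3815 ± 702, 6503 ± 928 and 5317 ± 944 CPM in the same order.

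Among the target genes, Irak1 differed from miR-7a by -0.60 (adjusted p = 0.0157) and from miR-29a by -0.42 (adjusted p = 0.0548), and Irak2 by -0.75 and -0.38 (adjusted p = 0.0239 and 0.0833). With the block both were also called lower than with miR-29a (adjusted p = 0.00925 for Irak1 and 0.031 for Irak2). Notch1 went in opposite directions, lower than with miR-29a by a log2 difference of -0.53 (adjusted p = 0.0482) and above miR-7a by 0.41, which was called with the block only (adjusted p = 0.0498, without it 0.221). Traf6 was called against neither, at 0.00 and -0.15 (adjusted p = 0.993 and 0.679). The largest protein-coding differences from miR-7a were of low genes, with Pcdhga8, Ifit3b and Nbl1 lower at log2 differences of -4.24, -4.12 and -4.06, and Col20a1 higher at 4.15 (adjusted p = 0.00509, 0.0206, 0.00325 and 0.00883). From miR-29a they included Rsc1a1 and Gm14446, lower at -4.90 and -4.11 (adjusted p = 0.00841 and 0.0023), beside F13a1, which was higher. Rsc1a1 was listed at 0 in 3 of 4 miR-146a and 3 of 4 scramble libraries and its difference is therefore weakly founded.

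Under vehicle, with libraries that were not part of the LPS comparison, the same mimic changed 292 of 11751 genes (2.48%), 128 higher (1.09%) and 164 lower (1.4%), and 1475 (12.6%) with the block, 5.8% of genes higher and 6.75% lower. The histone list had a median log2 fold change of -1.63 with 42 of 50 lower (47 with the block). The replication list had one of -0.61 with 4 of 56 lower (16 with the block). The mitosis list had one of -0.44 with 12 of 76 lower (21 lower and 1 higher with the block). The interferon-stimulated genes had a median of -0.03 with 0 of 31 called without the block, and 3 lower and 4 higher with it. F13a1 had a log2 fold change of 1.07 under vehicle (adjusted p = 0.00983), Sepp1 0.64 (adjusted p = 0.106), Maf 0.97 (adjusted p = 0.0291), Irak1 -0.49 (adjusted p = 0.0764) and Irak2 -0.52 (adjusted p = 0.128). With the block Sepp1 and Irak1 were called under vehicle as well (adjusted p = 0.0184 and 0.0386). For F13a1 the level without LPS was far higher. Scaled over all libraries of the series, it was 826, 851, 654 and 838 CPM in VEH_scramble and 1584, 1809, 1534 and 1633 CPM in VEH_miR-146a, against 39.4, 21.6, 29.3 and 26.4 CPM in LPS_scramble and 143, 104, 161 and 80.2 CPM in LPS_miR-146a.

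Whether the mimic acted differently under LPS was tested with an interaction term over 16 libraries. Of 12295 genes 0 were called by limma-voom without the block, where 1385 had an unadjusted p under 0.05 and the smallest adjusted p was 0.339. With the block 145 (1.18%) were called, 63 (0.512%) with a more positive and 82 (0.667%) with a more negative effect under LPS. Among protein-coding genes the largest differences were those of Gm4070 (-1.71), the photoreceptor cyclase activator Guca1a (1.57), the phosphatase Dusp1 (1.53) and the ciliary protein Cep290 (-1.53), with adjusted p between 0.0288 and 0.0474. F13a1 and Sepp1 were among them, with increases that were larger under LPS by log2 differences of 1.00 (adjusted p = 0.0429) and 0.91 (adjusted p = 0.0288). The corresponding difference for Irak1 was 0.14 (adjusted p = 0.593), for Irak2 0.03 (adjusted p = 0.94) and for Traf6 -0.20 (adjusted p = 0.463). For comparison with the effect of LPS itself, which called 2190 of 12291 genes (17.8%, with 9.46% higher and 8.36% lower, and with the block 3716 or 30.2%) between scramble libraries and shares the LPS_scramble libraries with the mimic comparison, F13a1 had a log2 fold change of -4.82 with LPS, Sepp1 -2.30, Xaf1 3.44 and Dlgap5 1.87.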

How the data were processed

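Total RNA libraries were sequenced after rRNA depletion, and the deposited table holds estimated counts per gene for 32 libraries, made by the authors with the nf-core rnaseq workflow on GRCm38. The aligner and quantifier within it, the annotation release and strand setting of the counting are not given in the sources used here. The deposited values had lost their decimal marks, and column totals reached 11043 M. Marks were restored by a probabilistic reading, up to 3 decimals. Each reading drew on the level of the gene in the other libraries, most closely those of the same group. The group labels thus entered before the tests, and their effect on the spread within groups was not tested. The restoration touched 30.1% of values above 0 in the 8 libraries compared. Genes with any value of posterior under 0.9 (2.21% of values) were left out. Restored totals were 2.705 to 20.52 M.

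From the restored counts, genes were filtered with filterByExpr, scaled by TMM (edgeR 4.0.16) and tested with limma-voom (limma 3.58.1, R 4.3.3) on 4 against 4 libraries without a block, and with Benjamini-Hochberg adjustment over all genes tested. The study names filterByExpr, TMM and a limma/edgeR model per pair of conditions, and it does not state voom or whether a block was used. Calls needed an adjusted p under 0.05 and a size of log2 fold change above 0.3. Replicate numbers come from the labels. They were taken to pair the libraries because the deviations of every same-numbered pair correlated above 0.1 (0.242, 0.482, 0.375 and 0.115). A differently numbered pair reached 0.21, so the pairing is not certain for every number. A fit with the replicate number as a block was read beside the fit without it. The study describes replicates of the line as different independent experiments, which the labels do not state, and if libraries shared a culture the p-values would measure only the spread between libraries. The labels also carry an animal age that differs between groups of this cell line, which was not used. No pair of libraries had identical values (0 pairs), and 0 columns of per-sample values were left unused.

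Alternatives were edgeR's quasi-likelihood test, DESeq2 1.42.0, limma-trend, sample quality weights, other scalings, filters and restorations, thinning to the smallest library, a correction for GC and length, and leaving out each library. On simulated data, limma-voom was run with and without the block. Quality weights, limma-trend, edgeR, DESeq2 and the correction for GC and length were run on them without it. The simulated libraries held no effect shared by same-numbered libraries, so they cannot show what the block does with such an effect. The interaction and the other blocked fits were not simulated. Genes named included the 12 largest changes in each direction. These were drawn from called protein-coding genes with an established symbol and the same sign in 4 of 4 pairs. Also named were Irak1, Irak2 and Traf6, and up to 4 called members of each list by p or the member with the smallest p. Up to 4 genes of each other comparison and 6 called genes with an 8mer were named as well. Some genes that meet this rule are not reported here. Members named beyond it were chosen after their values were seen. The comparison and all lists were chosen with earlier results of these data known. Of 69 named genes 23 share exons with another gene, 18 of them on the opposite strand, and histone genes are near-identical copies, so the assignment of their reads is uncertain. Sites were searched on the transcript strand in the longest annotated 3' UTR of each gene (GENCODE, GRCm38), and an 8mer was not also counted as a 7mer.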

Additional observations from a re-analysis of the deposited data

Results flagged for a closer look

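In 5 of the groups of 4 values examined for totals, shares and named genes (3.42% of them), 1 library stood apart from the other 3 by Dixon's criterion, which compares its gap to the nearest value with the whole range and which chance meets in about 5% of groups. Irak1 under miR-146a was highest in replicate 2 at 92.27 CPM, with the other libraries at 81.3 to 82.4 CPM. H2afx under scramble was lowest in replicate 1 at 122.3 CPM, against 159 to 165 CPM. Ccnd2 under scramble was highest in replicate 4 at 109.5 CPM, against 91.1 to 92.6 CPM. Mybl2 under miR-146a was highest in replicate 2 at 55.91 CPM, against 33.8 to 36.9 CPM, and Eno1 under miR-146a was lowest in replicate 4 at 1238 CPM, against 1631 to 1708 CPM. Replicate 1 of scramble and replicate 4 of miR-146a were the shallowest libraries of their groups, and the part of depth in these values was not tested.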

How the results depend on the processing

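The number of genes called between LPS_miR-146a and LPS_scramble, 307 in the report, was 32 to 266 without 1 library. It was 197 by edgeR's quasi-likelihood test, 671 by DESeq2, 165 by limma-trend, 593 with sample quality weights and 124 after thinning to the smallest library total. The values as deposited, without restored decimal marks, gave 31 calls, of which 0 were among the 307. With the pairing as a replicate block it was 1785, with edgeR and the block 1488 (added after seeing the data), and with the block and the correction for GC and length 1282. With the block and without scramble replicates 1 to 4 it was 1164, 562, 799 and 2344, and without miR-146a replicates 1 to 4 it was 1128, 544, 821 and 2342 (added after seeing the data). The block also moved the calls against miR-7a from 818 to 2619, against miR-29a from 1532 to 3408, under vehicle from 292 to 1475, between LPS_scramble and VEH_scramble from 2190 to 3716 and for the interaction from 0 to 145. The cause was not tested, except that thinning and leaving out a library use fewer counts or samples. The seed comparison has no test, and the median of genes with any site minus that of genes without was 0.0381, from 0.0121 (without miR-146a replicate 2) to 0.0526 without 1 library and 0.0147 without scramble replicate 3, 0.0004 for 8mer sites alone, and -0.0183, -0.0371 and -0.0308 within the short, middle and long tertile of 3' UTR length.

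Directions of named genes reversed in 3 settings. With values as deposited the log2 fold changes were -3.385 for Sepp1, -0.515 for Cd93, -3.739 for Slc40a1, -0.188 for Trim63, 1.639 for Hist1h4a, 0.940 for Irak1, 5.543 for Irak2, 3.240 for Notch1, 0.845 for Dlgap5, 1.041 for Mybl2, -1.386 for Trp53inp1 and -2.328 for mt-Nd6. In both settings with the GC and length correction, with and without the block, Ptprc had -0.012. In all other settings the 69 named genes kept their direction where they were tested. The median log2 fold changes of the histone, DNA replication, mitosis, recombination, interferon-stimulated, alternative activation and phagocytic receptor lists kept their sign in every setting run. Those of lists near 0 changed sign in some settings, as did those of the mitochondrially encoded genes, median log2 fold change -0.101 without scramble replicate 2, and of the cytosolic ribosomal protein genes, median log2 fold change 0.004 without miR-146a replicate 2. The block ended no call of a named gene and added 10. The smallest library held 2.705 M counts, and whether low genes lost their calls more often than high ones was not tested. Il20rb and Pole2 passed the threshold in 2 of 8 fits without 1 library, and Ago3, at a higher level, in 0 of 8.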

Other observations

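Genes of the microRNA machinery itself, which no comparison of the report describes, included 2 of 19 that rose and 0 that fell, where 0.819% of all genes rose, at a median log2 fold change of -0.06. Both were Argonaute genes, whose products hold the small RNA and bind the target message. Ago4 rose from 23.6, 29.1, 28 and 27.2 CPM under scramble to 37.8, 42.4, 49.7 and 46 CPM under miR-146a, with no overlap (log2 fold change 0.65, adjusted p = 0.0287). Ago3 rose from 107, 98.9, 127 and 131 CPM to 154, 161, 194 and 206 CPM (log2 fold change 0.60, adjusted p = 0.047). Ago4 was called in 3 of 8 fits without a library (without miR-146a replicate 1, 2 or 4) and Ago3 in 0 of 8. With the replicate block Ago1 and Ago2 were called higher as well, and the exportin Xpo5 lower. Ago2, the most abundant of the family, had 1160, 1214, 1506 and 1726 CPM under scramble and 1440, 1955, 2355 and 2614 CPM under miR-146a, higher in 4 of 4 pairs while the groups overlapped (log2 fold change 0.58, adjusted p = 0.149, with the block 0.00232).

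Among genes of the Atf4 stress response, 8 were called lower with the block (7.74% of all genes), including Atf4 itself (247, 213, 295 and 281 CPM under scramble and 208, 153, 220 and 222 CPM under miR-146a, adjusted p = 0.00673 with the block). The 8 became 2 without replicate 2 of either group, 5 without replicate 3 or miR-146a replicate 1 and 13 without replicate 4. The others were the amino acid synthesis genes Asns, Psat1 and Phgdh, and Mthfd2, Ddit3, Stc2 and Cebpb.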
